A study of Mus musculus with 38 samples.

Results

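The interferon-stimulated effector genes described here are 39 mouse genes that make the proteins with which a cell acts against infection after interferon has been sensed. They were chosen by name, and all 39 were matched by symbol among the 55487 genes of the 3 raw count tables. The choice used no measured value, but the genes were chosen with earlier results of these data known.

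The study measured polyadenylated RNA in 38 libraries from 18 groups, 16 of 2 libraries and 2 of 3. BV2, an immortalised mouse microglial line, and GL261, a mouse glioma line, were each grown alone or together in direct contact, with 2 libraries per group. Cultures lasted 16 h in normoxia (21% oxygen) or in hypoxia (less than 0.1% oxygen). Bone marrow-derived macrophages (BMDM) of wild-type mice were grown alone (2 libraries per oxygen level) or on GL261 cells (3 per oxygen level) under the same conditions. In a separate experiment BV2 and BMDM received the vehicle DMSO in normoxia or hypoxia, or the histone deacetylase inhibitor panobinostat at 10 nM in hypoxia, with 2 libraries per group.

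All cells were fixed with 3% glyoxal before RNA was taken. Co-cultures held 2 GL261 cells for each BV2 cell or 1 for each BMDM, and GL261 cells in co-culture had BV2 as their partner. BV2 and GL261 are lines, and BV2 and BMDM were kept in different media, so cell type and medium cannot be told apart. How the cells were separated after co-culture is not given in the sources used here. Panobinostat was given in hypoxia only. For the BMDM and panobinostat libraries nothing says that replicates came from separate cultures or animals, so p-values there measure only the spread between these libraries, which may be technical.

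As background, type I interferons bind a receptor that works through kinases, and a complex of transcription factors that includes IRF9 then binds the interferon-stimulated response element in the promoters of these genes. Interferon gamma acts through another element, the gamma-activated site. In microglia and macrophages the products bind foreign RNA, block viral entry and release, or act on vacuoles that hold pathogens.

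RefSeq promoters (build GRCm38.p6, from 250 bases before to 50 after the start) were matched for 29 of the 39 members. The core of the response element was searched on both strands as TTTC and a second TTTC with any 2 bases between. It was in a promoter of 16 of these 29 genes (55.2%) and of 3.99% of 27025 mouse genes. TTCNNNGAA, the gamma-activated site, was in 7 of 29 (24.1%) and in 9.55% of all genes. These are matches of letters, not shown binding.

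The 250 bases before the start are shown for Irgm1, Ifi35, Ifit3 and Ifit1, which passed the test in 11, 12, 11 and 11 of the 24 comparisons, with matches of the response element in capitals. Irgm1 is at chr11:48871421-48871670 on the minus strand, Ifi35 at chr11:101448162-101448411 on the plus strand, Ifit3 at chr19:34583279-34583528 on the plus strand and Ifit1 at chr19:34640639-34640888 on the plus strand. Rtp4 also passed in 12.
Irgm1: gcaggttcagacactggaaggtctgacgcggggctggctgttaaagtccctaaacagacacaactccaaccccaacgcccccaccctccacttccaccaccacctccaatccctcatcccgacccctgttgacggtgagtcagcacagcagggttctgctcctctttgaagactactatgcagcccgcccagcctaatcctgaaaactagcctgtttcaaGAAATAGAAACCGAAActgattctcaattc
Ifi35: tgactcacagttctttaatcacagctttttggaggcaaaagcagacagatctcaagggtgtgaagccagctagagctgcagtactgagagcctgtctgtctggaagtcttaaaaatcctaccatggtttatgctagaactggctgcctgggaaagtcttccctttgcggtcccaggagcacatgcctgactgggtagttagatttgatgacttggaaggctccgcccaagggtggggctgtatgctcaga
Ifit3: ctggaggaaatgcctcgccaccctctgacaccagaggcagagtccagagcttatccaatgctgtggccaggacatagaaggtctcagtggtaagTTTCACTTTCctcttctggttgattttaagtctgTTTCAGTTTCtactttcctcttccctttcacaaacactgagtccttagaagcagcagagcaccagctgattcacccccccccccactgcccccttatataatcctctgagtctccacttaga
Ifit1: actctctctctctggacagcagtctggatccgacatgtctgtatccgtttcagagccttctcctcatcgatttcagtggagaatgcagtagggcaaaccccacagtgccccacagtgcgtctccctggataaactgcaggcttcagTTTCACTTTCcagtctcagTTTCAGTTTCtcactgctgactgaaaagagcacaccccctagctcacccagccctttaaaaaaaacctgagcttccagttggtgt
Ifit1 and Ifit3 each held 2 separate matches, Irgm1 held 2 that overlap, and Ifi35 held neither motif in this window.

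Shorter windows show the matches of 3 members whose levels are followed throughout, because they differ in arrangement and place. Isg15 is at chr4:156200870-156200901, Bst2 at chr8:71537582-71537607 and the 2 matches of Ifitm3 at chr7:141010728-141010747 and chr7:141010711-141010730, all on the minus strand.
Isg15: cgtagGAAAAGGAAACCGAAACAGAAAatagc
Bst2: tccagGAAAATGAAACTGAAAggctg
Ifitm3, first match: ttcagGAAAAGGAAActtct
Ifitm3, second match: tctgaGAAACCGAAActgcc
The Isg15 and Bst2 runs end 56 and 114 bases before the start, and the Ifitm3 matches both lie just after it.

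Library totals ran from 9634700 to 27238933 counts, and 3 counts in a library correspond to 0.110 to 0.311 CPM, the count scaled for library size. Levels below are CPM scaled by edgeR's TMM factors within the libraries of a fit, and a change is a log2 fold change with its standard error (SE). A gene passed where edgeR's quasi-likelihood test gave a Benjamini-Hochberg adjusted p under 0.05 over all genes tested. Percentages of all genes refer to adjusted p. Counts of members at an unadjusted p under 0.05 have no share of all genes at that threshold beside them. They are not comparable with those percentages and do not set the members apart. The same holds for a DESeq2 count given without a share. In the normoxic monocultures the defining myeloid markers were high in BV2 (Csf1r 561, Cd68 689 and Ptprc 264 CPM) and BMDM (Csf1r 3347 and Adgre1 730 CPM), while Csf1r was at 0.182 CPM in GL261. BV2 held little of the microglial markers P2ry12 (7.10), Tmem119 (1.75) and Cx3cr1 (1.29 CPM) and no Sall1. GL261 held Sox2 at 382 CPM and no Sox9. The 10 glial or glioma markers summed to 2510 to 2791 CPM in GL261, 1.53 to 1.87 in BV2 and 197 to 266 in BMDM. In normoxic BMDM co-culture they summed to 203 to 260 CPM. The BMDM monocultures were thus not free of these transcripts, and their source was not tested.

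In several groups 1 replicate was the higher for nearly all members. In DMSO-treated normoxic BV2 cells, replicate 1 was above replicate 2 in 37 of 38 members, with a median ratio of 3.05, while it was above in 45.0% of all genes. In DMSO-treated normoxic BMDM it was above in 36 of 39 members, with a median ratio of 2.07, against 50.3% of all genes. Of these pairs, Isg15 stood at 24.7 and 7.87 CPM in BV2 and at 115 and 24.6 CPM in BMDM. Replicate 1 of GL261 was also the higher in 37 of 38 members in hypoxic co-culture (median ratio 1.55) and in 36 of 39 in hypoxic monoculture (1.54). In BMDM, Ifi44 stood at 65.1, 7.99 and 34.4 CPM in the 3 normoxic co-cultures. Replicate 2 was also its lowest library in hypoxic co-culture (41.0, 2.75 and 16.1 CPM) and in normoxic (19.3 and 2.14) and hypoxic monoculture (11.1 and 1.17). The level of this gene thus followed the replicate number across these groups. In the BV2, GL261 and BMDM pairs above, nearly all members were thus high in the same library of a group. Counts of members called, or their ranges, are given with and without such a library. Leaving out a library weakens the test for every gene, and the share of all genes called is mostly not given for those fits. Such a count therefore cannot tell a change in the members from a change in calls over all genes. Changes of single genes are mostly given with it only.

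**Figure D1:**
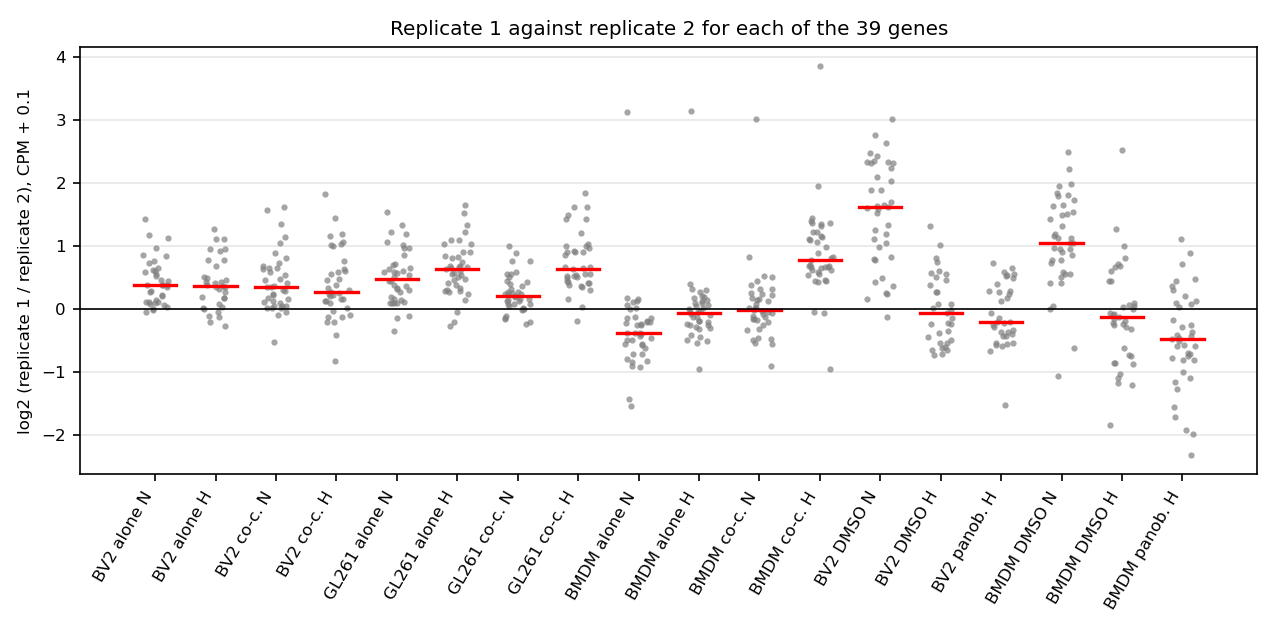
Log2 ratio of replicate 1 to replicate 2 (CPM, 0.1 added) for each member with at least 10 counts, by group; each point is a gene and the red line is the median. In the DMSO normoxia groups of BV2 and BMDM the points lie almost wholly above 0, with median ratios of 3.05 and 2.07.

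Set per kilobase of exon, Ifitm3 had the highest mean level of the 39 members in the normoxic monoculture of each cell type. This protein, which blocks viral entry by fusion, stood at 173 CPM per kb in normoxic BV2 monoculture, 180 in GL261 and 633 in BMDM. Bst2 (tetherin, which holds budding virus at the cell surface) followed in both lines, at 94.4 in BV2 and 174 in GL261. In BMDM Ifi27l2a came second at 469 CPM per kb and Bst2 next at 216. In GL261 the order of the first pair was not stable: replicate 2 held Bst2 at 124 and Ifitm3 at 110 CPM per kb, and in hypoxia Bst2 was above Ifitm3 in both libraries. These values come from separate fits and are given as levels, with no test between genes.

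BV2 cells carried most members at lower levels than GL261. In normoxic monoculture 23 of 39 were lower and 8 higher in BV2 (backgrounds of 39.4% and 33.8% of all genes tested), with a median log2 difference of -1.85 (also -1.85 with Iigp1 at the bound given below), against -0.12 over all genes tested. All 3 IFIT genes, RNA-binding proteins that hold back translation of foreign RNA, were lower in BV2. Ifit3 stood at 12.5 and 11.8 CPM in GL261 and at 0.595 and 0.312 in BV2 (log2 -4.60, SE 0.39, edgeR adjusted p = 4.6e-09). Trim30a, of the TRIM family, stood at 22.6 and 19.8 CPM in GL261 and at 1.32 and 1.11 in BV2 (log2 -4.0, SE 0.36, edgeR adjusted p = 1.1e-08). The groups lay far apart for both genes. Iigp1, an immunity-related GTPase that acts on vacuole membranes, had 96 counts in GL261 and 0 in BV2, at least 38.4-fold lower with 3 counts over the group as the floor.

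The members higher in BV2 included 4 of the 5 oligoadenylate synthetase family genes, whose best known product activates RNase L. Oasl1 stood at 33.5 and 24.3 CPM in BV2 and at 0.512 and 0.213 in GL261 (log2 6.39, SE 0.35, edgeR adjusted p = 7.1e-12). Oas3 (3.35), Oas2 (1.76) and Oas1a (1.01) were also higher, and Oas1a shares 47.6% of its 75-base words with Oas1g, so its counts are uncertain. Ifi204, a DNA-binding PYHIN protein, had 409 counts in BV2 and 4 in GL261, a ratio of 85.2 (95% interval 33.0 to 314.1, counting error only). Ifitm3 did not pass, at 140 and 94.3 CPM in BV2 and 170 and 74.4 in GL261 (log2 0.06, SE 0.27, edgeR adjusted p = 0.85), and the groups overlapped.

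Against BMDM, both under DMSO in normoxia, 27 of 39 members were lower in BV2 and 0 were higher (backgrounds 27.1% and 17.1%; median log2 -2.26; 31 at unadjusted p under 0.05; DESeq2 called 29 lower and 0 higher). Slfn5, a Schlafen protein, stood at 236 and 76.4 CPM in BMDM and at 1.79 and 0.278 in BV2 (log2 -7.41, SE 0.81, edgeR adjusted p = 8.4e-05). Trim30a was at 110 and 53.0 CPM in BMDM and at 2.61 and 1.04 in BV2 (log2 -5.65, SE 0.63, edgeR adjusted p = 9.7e-05). Iigp1 had 140 counts in BMDM and 1 in BV2. Isg15 and Bst2 did not pass, at edgeR adjusted p of 0.071 and 0.18. Replicate 1 is the higher library of both groups, and the number lower fell to 17 without replicate 2 of BV2 and to 15 without replicate 1 of BMDM.

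Hypoxia lowered more members than it raised in each of the 8 comparisons of oxygen, which use separate libraries. In BV2 monoculture 15 of 36 members tested fell and 5 rose (backgrounds 31.0% and 30.9%), and in BV2 co-culture 14 fell and 5 rose (backgrounds 32.1% and 35.2%). In GL261, 11 of 39 fell and 1 rose in monoculture (21.4% and 23.2%), and 16 fell and 3 rose in co-culture (25.6% and 26.8%). In BMDM, 14 of 39 fell and 1 rose in monoculture (10.6% and 13.3%), and 27 fell and 1 rose in co-culture (17.3% and 17.5%). The median changes ran from -0.20 in GL261 monoculture to -0.91 in BMDM co-culture. The share that fell stood far over its background in both BMDM comparisons and nearer to it in BV2 and in GL261 monoculture, while the share that rose lay below the background in all of these 6.

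These counts changed when single libraries were left out. The number that fell was 9 in BV2 monoculture without replicate 1 of normoxia, 7 in GL261 monoculture without replicate 1 of normoxia, and 9 in GL261 co-culture without replicate 2 of hypoxia. In BMDM monoculture it was 4 without replicate 2 of normoxia and 3 without either replicate of hypoxia.

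Apobec3, a cytidine deaminase that acts against retroviruses, was the only member to fall in all 8 comparisons. In BV2 monoculture it stood at 65.1 and 61.3 CPM in normoxia and at 28.5 and 28.2 in hypoxia. In GL261 monoculture it stood at 48.5 and 45.7, then at 28.6 and 34.5. In BMDM co-culture it stood at 119, 87.5 and 80.9, then at 58.3, 27.2 and 43.2. No hypoxic library reached a normoxic one in these comparisons. Part of its exon sequence, 8.21%, is overlapped by other genes, and the strand setting of the counting is not given in the sources used here.

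Next in order were Ifi35, a partner of N-myc interactor, and the immunity-related GTPases Irgm1 and Igtp, each lower in 7 of 8 comparisons. Ifi35 fell in BV2 monoculture from 23.8 and 18.3 CPM to 5.96 and 3.68 (log2 -2.13, SE 0.20, edgeR adjusted p = 1.5e-07). In BV2 co-culture it fell from 27.9 and 29.0 to 6.85 and 7.93 (log2 -1.95, SE 0.19, edgeR adjusted p = 2.1e-07). An antisense gene overlaps 16.79% of its exons. Igtp fell in GL261 co-culture from 72.9 and 65.6 to 23.1 and 18 CPM (log2 -1.76, SE 0.24, edgeR adjusted p = 0.0001), and in monoculture by 1.51. Of the guanylate-binding and immunity-related GTPases, 5 of 6 tested fell in BV2 monoculture, 3 of 7 in GL261 monoculture and 4 of 7 in BMDM monoculture, and none rose. In BV2, Gbp3 went from 3.10 and 2.01 to 0.590 and 0.659 CPM (log2 -2.02, SE 0.42, edgeR adjusted p = 0.00058).

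Among the membrane factors, Bst2 fell in 6 of 8 comparisons and Ifitm3 in 5. Bst2 in GL261 co-culture fell from 308 and 261 CPM to 137 and 104 (log2 -1.24, SE 0.24, edgeR adjusted p = 0.0012). In BMDM co-culture it stood at 473, 469 and 480, then at 345, 227 and 285 (log2 -0.73, SE 0.15, edgeR adjusted p = 0.0037). Each hypoxic library was below each normoxic one. Ifitm3 in BV2 monoculture did not pass, at 140 and 94.3 CPM in normoxia and 117 and 91.7 in hypoxia (log2 -0.17, SE 0.16, edgeR adjusted p = 0.38).

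The ISG15 and IFIT genes were less uniform. Isg15, a ubiquitin-like modifier, fell in BMDM monoculture from 19.9 and 28.2 to 11.4 and 14.0 CPM (log2 -0.92, SE 0.21, edgeR adjusted p = 0.011). It did not pass in BV2 monoculture, at 5.02 and 2.99 CPM then 3.89 and 2.75 (log2 -0.28, SE 0.26, edgeR adjusted p = 0.38), or in GL261 monoculture, at 33.8 and 13.4 then 23.9 and 17.3 (log2 -0.20, SE 0.33, edgeR adjusted p = 0.66). In both the groups overlapped. All 3 IFIT genes and all 5 oligoadenylate synthetase family genes fell in BMDM co-culture, where Oasl1 went from 31.3, 33.2 and 18.7 CPM to 11.4, 4.54 and 4.57 (log2 -2.03, SE 0.39, edgeR adjusted p = 0.0022). There Mx1, a dynamin-like GTPase active against influenza virus, went from 44.6, 61.4 and 24.9 to 16.6, 6.40 and 9.06 (log2 -2.04, SE 0.47, edgeR adjusted p = 0.0061). Ifi27l2a, a small interferon-inducible membrane protein, fell in GL261 from 19.3 and 8.22 to 2.44 and 1.66 CPM in monoculture (log2 -2.72, SE 0.50, edgeR adjusted p = 0.0012), the largest fall of the 11 there.

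A few members rose in hypoxia. Samd9l, a factor that restrains translation, rose in 4 of 8 comparisons, the monocultures and co-cultures of BV2 and BMDM, and did not pass in GL261 or under DMSO. It went from 3.23 and 2.99 to 13.6 and 15.8 CPM in BV2 monoculture (log2 2.24, SE 0.23, edgeR adjusted p = 4.4e-07) and from 73.4 and 84.2 to 188 and 181 in BMDM monoculture (log2 1.23, SE 0.26, edgeR adjusted p = 0.0067). In GL261 monoculture it stood at 23.1 and 25.7, then 27.5 and 22.7. The BV2 and BMDM groups did not overlap, and the GL261 groups did. Ifi204 rose in all 3 BV2 comparisons, from 9.31 and 8.47 to 64.9 and 70.4 CPM in monoculture (log2 2.93, SE 0.15, edgeR adjusted p = 2.7e-10). Mx2, annotated as a polymorphic pseudogene, rose in GL261 co-culture, from 6.89 and 5.53 to 25.3 and 10.9 CPM (log2 1.54, SE 0.39, edgeR adjusted p = 0.0058). Herc6, the mouse ISG15 ligase, rose in 3 comparisons. Dtx3l, a ubiquitin ligase, rose in 3 and its ADP-ribosylating partner Parp9 in 2. Dtx3l and Parp9 overlap on opposite strands over 8.0% and 9.4% of their exons.

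**Figure D2:**
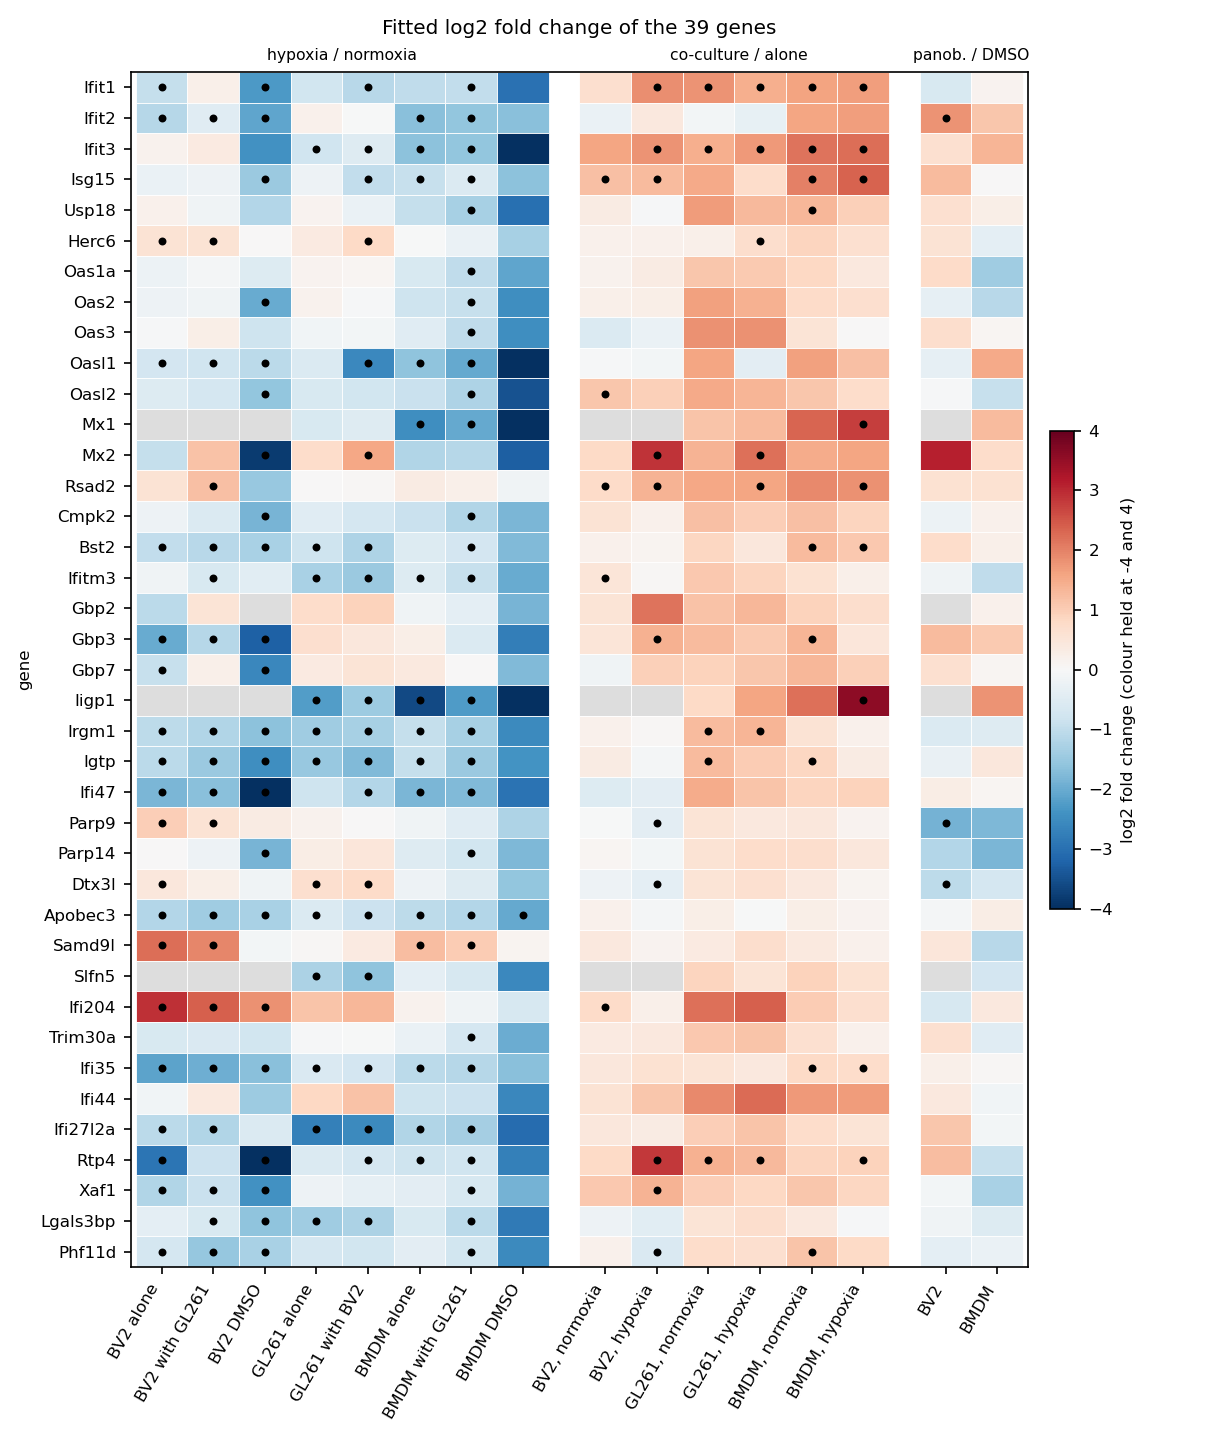
Log2 fold change of each of the 39 members (rows) in 16 comparisons (columns); colour is held at -4 and 4, dots mark an edgeR adjusted p under 0.05, and gray means not tested. Apobec3 is called lower in every hypoxia column, Ifi204 is called higher in all 3 BV2 columns and Samd9l in BV2 alone and with GL261.

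The hypoxia effect itself differed between BV2 and GL261 monocultures for 9 members (background 37.4% of all genes), by an interaction term whose median over all genes was 0.15. The term, the log2 change in BV2 minus that in GL261, was positive for Samd9l (log2 difference 2.30, SE 0.33, edgeR adjusted p = 2.5e-05), Ifitm3 (1.22), the secreted galectin-binding Lgals3bp (1.15) and Parp9 (0.91). For Ifitm3 and Lgals3bp the mean level fell in both lines, and less in BV2. Ifitm3 went from 170 and 74.4 to 54.8 and 44.8 CPM in GL261, and from 140 and 94.3 to 117 and 91.7 in BV2. The term was negative for Ifi35 (-1.43, SE 0.26, edgeR adjusted p = 0.00027), Ifit2 (-1.24), Gbp3 (-2.58), Rtp4 (-2.27) and Apobec3 (-0.48). Ifi35 and Apobec3 also fell in both lines, and more in BV2. Rtp4 rested on 2 counts in each hypoxic BV2 library. Ranges when 1 library is left out were 1 to 5 members higher and 2 to 5 lower.

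Co-culture raised members in each cell type, among them Isg15 in BV2 and BMDM and Ifit1 and Ifit3 in GL261 and BMDM. These 6 comparisons share both their monoculture and their co-culture libraries with the hypoxia comparisons above, so the values stand side by side and are not independent of them. In GL261 with BV2, 5 of 39 rose in normoxia and 7 in hypoxia (backgrounds 0.323% and 0.889%), none fell by edgeR or DESeq2 (0.191% and 0.50% of all genes fell), and 30 members had an unadjusted p under 0.05 at each oxygen level. The sign was positive for 38 of 39 and for 36 of 39 members, with medians of 1.13 and 1.06. DESeq2 called 14 and 17 higher (0.546% and 2.03% of all genes).

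Ifit3 rose in GL261 from 12.5 and 11.8 CPM to 33.0 and 33.6 in normoxia (log2 1.45, SE 0.17, edgeR adjusted p = 0.007) and from 6.83 and 7.07 to 26.8 and 19.8 in hypoxia (log2 1.74, SE 0.18, edgeR adjusted p = 0.0014). Its counts are uncertain because 41.11% of its 75-base words occur in Ifit3b. Ifit1 rose from 14.7 and 9.44 to 39.3 and 45.5 CPM in normoxia (log2 1.81, SE 0.30, edgeR adjusted p = 0.028). Rtp4, a receptor transport protein, rose from 18.3 and 12.2 to 41.3 and 40.0 CPM (log2 1.42, SE 0.22, edgeR adjusted p = 0.019). Co-culture and monoculture did not overlap for these genes. In hypoxia Mx2 rose from 5.08 and 2.68 to 25.3 and 10.9 CPM (log2 2.20, SE 0.39, edgeR adjusted p = 0.025) and Rsad2 (viperin, an antiviral radical SAM enzyme) from 6.60 and 3.69 to 20.1 and 11.0 (log2 1.57, SE 0.31, edgeR adjusted p = 0.037). Isg15 stood at 33.8 and 13.4 then 68.8 and 65.6 CPM in normoxia without passing (log2 1.51, SE 0.33, edgeR adjusted p = 0.087). The number of members called higher changed when single libraries were left out, at both oxygen levels, and the ranges are given at the end.

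In BMDM on GL261, 9 members rose in normoxia and 9 in hypoxia (backgrounds 1.57% and 4.06%), and 0 fell by edgeR or DESeq2 (0.0675% and 3.05% of all genes fell; 32 and 20 members at unadjusted p under 0.05). The sign was positive for 39 of 39 and 38 of 39 members, with medians of 0.92 and 0.73. DESeq2 called 24 and 15 higher (3.79% and 6.75%). Isg15 rose from 19.9 and 28.2 CPM to 97.1, 109 and 83.0 in normoxia (log2 2.01, SE 0.20, edgeR adjusted p = 0.0023) and from 11.4 and 14.0 to 67.2, 70.3 and 56.4 in hypoxia (log2 2.35, SE 0.21, edgeR adjusted p = 0.00092). Every co-culture library lay above every monoculture library.

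Ifit3 rose in normoxic BMDM from 14.3 and 26.0 to 109, 98.1 and 63.0 CPM (log2 2.16, SE 0.42, edgeR adjusted p = 0.03). Bst2 rose from 195 and 195 to 473, 469 and 480 CPM (log2 1.28, SE 0.18, edgeR adjusted p = 0.0074), and Usp18, the protease that removes ISG15, rose by 1.34. In hypoxia Mx1 rose from 1.02 and 2.07 to 16.6, 6.40 and 9.06 CPM (log2 2.76, SE 0.64, edgeR adjusted p = 0.03). Iigp1 also passed in hypoxia, on 18 counts against 1, a ratio of 14.4 (95% interval 2.28 to 601.3, counting error only). For Ifit3, Bst2, Mx1 and Iigp1 no co-culture library was as low as a monoculture library. The 11 myeloid markers summed to 9568 to 9922 CPM in normoxic monoculture and to 9095 to 10393 in co-culture, and 3 neutrophil markers to at most 18.4 CPM. Without replicate 1 of monoculture the number higher in normoxia was 0 (22 at unadjusted p under 0.05), and it was 1, 3, 2 and 6 without replicate 2 of monoculture or replicates 1, 2 and 3 of co-culture. In hypoxia it was 1 without either monoculture library and 3 without replicate 3 of co-culture.

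In BV2 on GL261, 5 of 36 members rose and 0 fell in normoxia (backgrounds 5.77% and 9.14%; 10 at unadjusted p under 0.05), and 8 rose and 3 fell in hypoxia (8.13% and 7.57%). Isg15 rose at both oxygen levels, from 5.02 and 2.99 to 9.96 and 8.54 CPM in normoxia (log2 1.20, SE 0.24, edgeR adjusted p = 0.0047) and from 3.89 and 2.75 to 8.35 and 7.70 in hypoxia (log2 1.28, SE 0.25, edgeR adjusted p = 0.0023). Rsad2 also rose at both. Ifit1 rose in hypoxia from 1.06 and 0.769 to 3.84 and 2.74 CPM (log2 1.85, SE 0.34, edgeR adjusted p = 0.0014). Mx2 and Rtp4 passed in hypoxia on 39 counts against 5 and 30 against 4. Phf11d, Parp9 and Dtx3l fell in hypoxic co-culture, Parp9 from 61.8 and 58.6 to 46.9 and 42.1 CPM (log2 -0.43, SE 0.12, edgeR adjusted p = 0.022). The number that rose in normoxia was 0 without replicate 2 of monoculture (3 at unadjusted p under 0.05) and 1 without replicate 1 of co-culture. In hypoxia 3 rose without replicate 2 of monoculture or replicate 1 of co-culture.

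**Figure D3:**
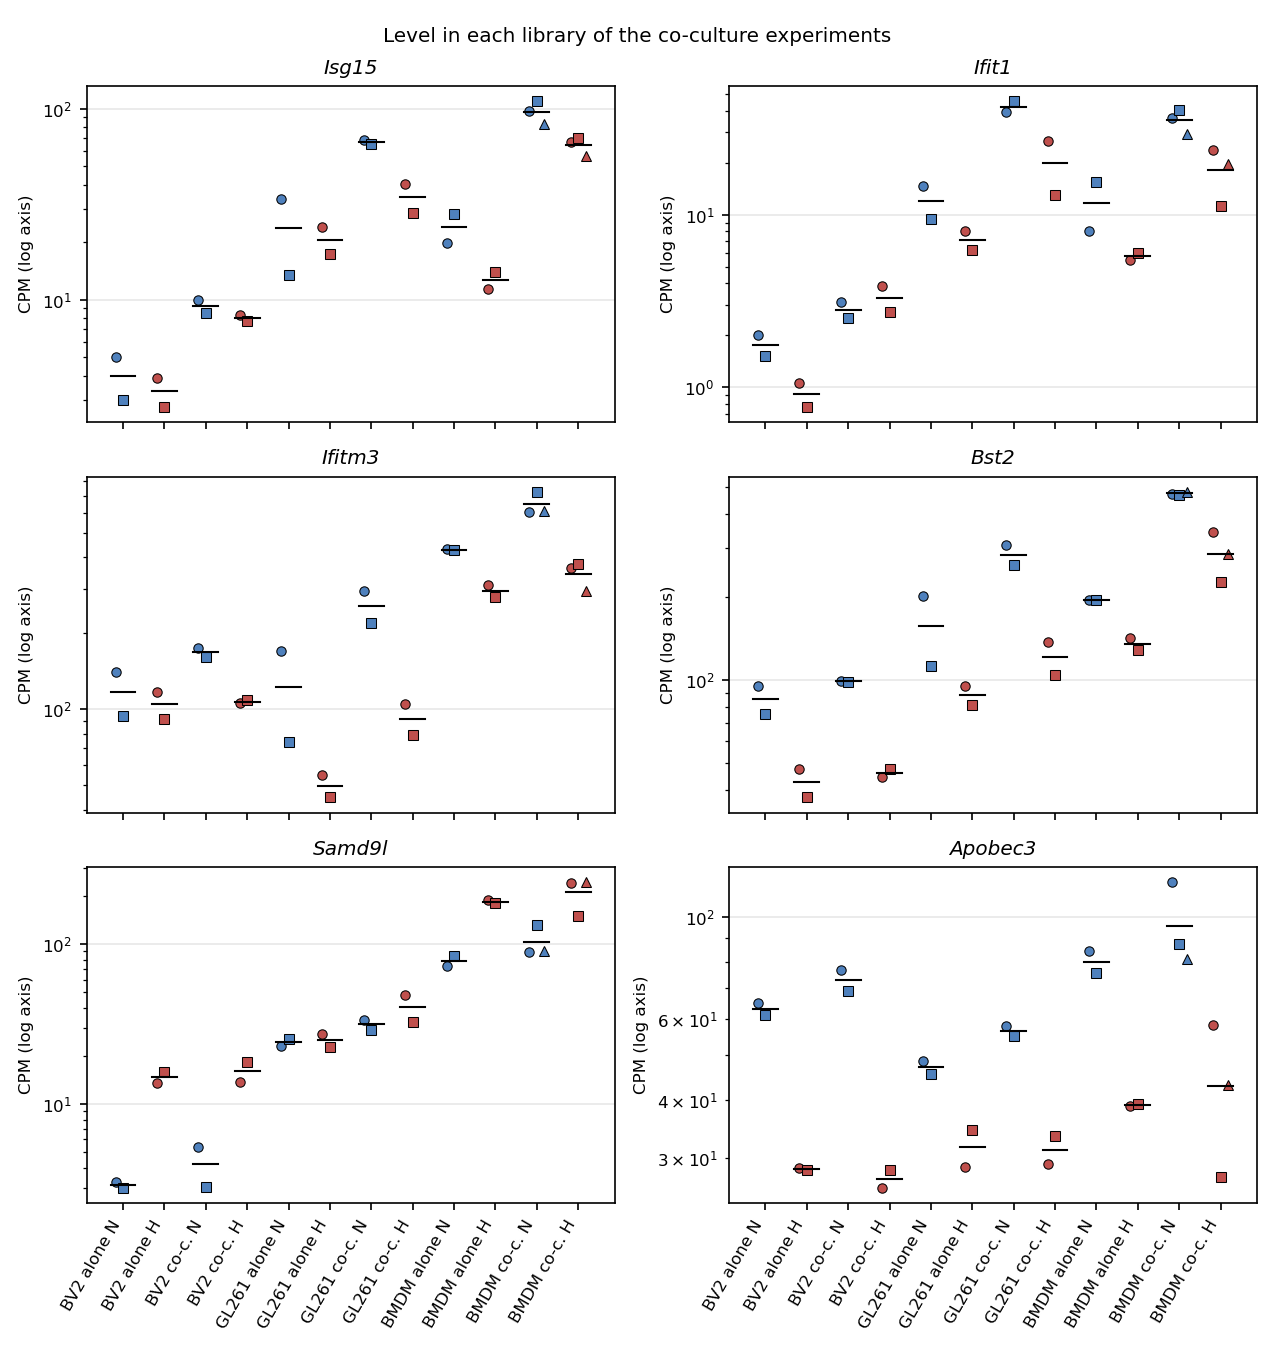
Levels of Isg15, Ifit1, Ifitm3, Bst2, Samd9l and Apobec3 (CPM, log axis) in monoculture and co-culture of each cell type; circles, squares and triangles are replicates 1, 2 and 3, blue is normoxia, red is hypoxia and the line is the mean. Isg15 in BMDM lies at 83.0 to 109 CPM in normoxic co-culture, above both monoculture libraries.

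The hypoxia effect was not shown to differ between co-culture and monoculture for any member. edgeR called 0 in BV2 (2.19% of all genes; 8 members at unadjusted p under 0.05), 0 in GL261 (0%; 0 members) and 0 in BMDM (0%; 1 member), and DESeq2 called 0 in each.

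Transcripts of the partner reached the co-culture libraries in small amounts. The partner shares, partner levels, rises and carried-over levels below use CPM scaled by library totals only, without the TMM factors. The partner share, read from genes of at least 20 CPM and 100-fold higher in the partner's monoculture, averaged 0.761% in normoxic and 2.21% in hypoxic BV2 co-cultures, 0.772% and 0.230% in GL261, and 2.39% and 3.76% in BMDM. The hypoxic BMDM libraries ranged from 1.69% to 6.38%, and without replicate 3 their mean was 2.46%. Of the 39 members, 30 were higher in the GL261 partner than in BV2 in normoxic monoculture and 29 in hypoxia. For GL261, 9 and 10 were higher in BV2, and for BMDM 7 and 16 were higher in GL261, whose level was taken from the BV2 experiment. That reference held no Sox9 and at most 4 counts of Fabp7 in a library, whereas BMDM held both also in normoxic monoculture (means of 2.66 and 2.63 CPM).

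The level that this share would carry over was set beside each rise. In GL261 it came to at most 0.131% of the rise in any member called higher, and to at most 0.315% with the partner's level in co-culture, an alternative chosen after seeing the data. In BMDM it came to at most 7.38% and 11.98%, and to 12.5% at the highest single-library share with the monoculture level. In BV2 it was 3.25% of the rise of Isg15 in normoxia (9.03% with the partner's co-culture level) and 9.96% in hypoxia (16.0%), and 6.84% for Ifit1 in hypoxia (18.2%). It was much larger for Gbp3 (64.8%), Xaf1 (45.6%) and Rtp4 (31.8%) in hypoxic BV2. Scaled by library totals, Gbp3 stood at 29.5 CPM in the hypoxic GL261 monoculture and at 0.609 in that of BV2. With the partner's level in co-culture, Gbp3 reached 130.6%, Xaf1 78.3%, Rtp4 74.9%, Mx2 41.0% and Ifit3 40.3%. The partner's part in the rise of these BV2 genes was not tested further.

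**Figure D4:**
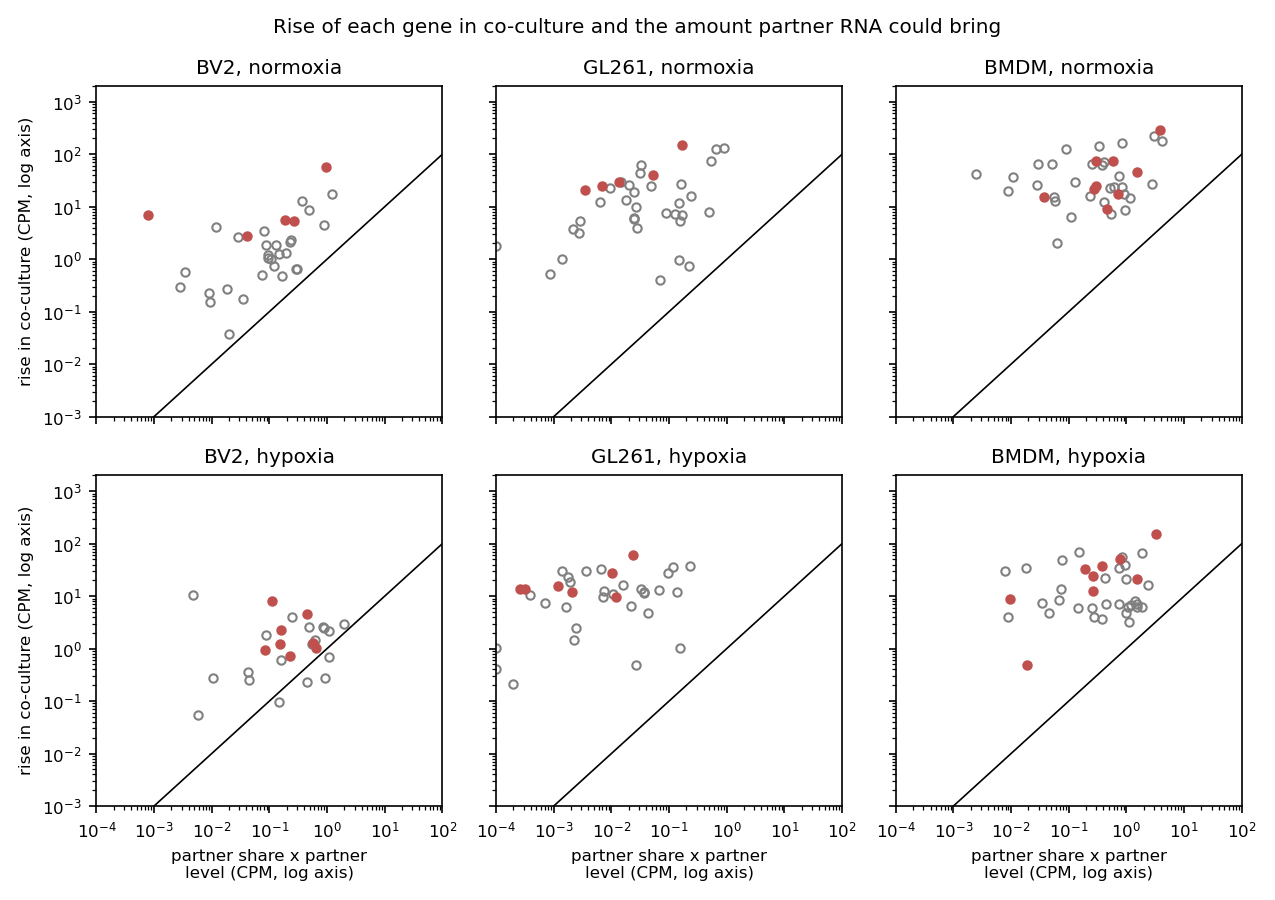
Rise of each member in co-culture (CPM) against the level carried over at the partner share (CPM), by cell type and oxygen, for members with a rise; filled red points are called higher, the line marks equality, and values under 1e-4 sit at the axis edge. In GL261 the called members lie far from the line. In hypoxic BV2 Gbp3 has the highest share of its rise among the called members, at 64.8%. There uncalled members that include Herc6, Trim30a, Irgm1 and Cmpk2 lie past the line.

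With genes whose partner level was 4-fold or more above their own left out, the test called 2 of 22 members higher in normoxic BV2 and 1 of 22 in hypoxic BV2 (2.85% and 3.56% of the remaining genes). It called 3 and 7 of 35 in GL261 (0.0416% and 0.714%) and 2 and 4 of 36 in BMDM (0.0627% and 0.196%).

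Members with the response element letters in their promoter were called higher in co-culture more often in number than those without. In normoxia the counts were 3 of 15 against 1 of 13 in BV2, 4 of 16 against 0 of 13 in GL261, and 6 of 16 against 2 of 13 in BMDM. For falls in hypoxia the counts were 7 of 15 against 6 of 13 in BV2 monoculture and 6 of 15 against 7 of 13 in co-culture. They were 7 of 16 against 2 of 13 and 9 of 16 against 4 of 13 in GL261, and 6 of 16 against 4 of 13 and 11 of 16 against 9 of 13 in BMDM. The median change in normoxic co-culture of those with and without the letters was 0.35 and 0.22 in BV2, 1.21 and 0.73 in GL261, and 0.92 and 1.10 in BMDM. No test of any of these was made.

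In the panobinostat experiment, hypoxia under DMSO lowered 21 of 35 members in BV2 and raised 1 (backgrounds 20.2% and 17.2%), with a median of -1.50. Igtp fell by 2.50, Gbp3 by 3.28 and Gbp7 by 2.62 on the log2 scale, and all 5 guanylate-binding and immunity-related GTPases tested fell. Bst2 fell from 222 and 130 CPM to 71.3 and 70.7 (log2 -1.31, SE 0.26, edgeR adjusted p = 0.0042). Rtp4 fell from 142 counts to 8, a ratio of 16.7 (95% interval 8.24 to 39.4, counting error only), and Ifi47 from 76 to 4. Of the 142 counts of Rtp4, 118 were in replicate 1 and 24 in replicate 2, a spread that the interval does not cover. Ifi204 rose from 24.4 and 7.80 to 53.2 and 62.2 CPM (log2 1.84, SE 0.42, edgeR adjusted p = 0.0071). Replicate 1 of DMSO normoxia is the library in which 37 of 38 members were high, and without it 8 members fell (18.3% of all genes).

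In BMDM under DMSO, edgeR called 1 of 39 members lower and 0 higher in hypoxia (backgrounds 0.0134% and 0.469%; 35 at unadjusted p under 0.05), with 38 of 39 negative and a median of -2.39. DESeq2 called 33 lower (6.51% of all genes). Apobec3 was the member that passed, from 46.4 and 45.0 CPM to 10.6 and 11.3 (log2 -2.06, SE 0.24, edgeR adjusted p = 0.043). Ifitm3 stood at 1270 and 440 CPM in normoxia and at 212 and 213 in hypoxia, groups that did not overlap (log2 -2.01, SE 0.53, edgeR adjusted p = 0.1). Isg15 stood at 115 and 24.6, then 38.1 and 6.54, and its groups overlapped, though each hypoxic library was below the normoxic library of the same number. The count with the replicate number as a block is given at the end. The call of Apobec3 was lost without replicate 1 or 2 of normoxia or replicate 1 of hypoxia.

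Myeloid markers moved with the BMDM groups of this experiment. The summed level of the 11 myeloid markers was 7105 to 8679 CPM under DMSO in normoxia, 3262 to 5697 in hypoxia and 712 to 2142 under panobinostat. The 4 macrophage markers summed to 1877 to 4624, then 989 to 1392, then 310 to 444 CPM. The 3 neutrophil markers summed to 1.32 to 11.1, then 0.554 to 1.14, then 0 to 1.45 CPM, and T and B cell markers each summed to at most 0.0714 CPM in any of these libraries. The part of the marker change in the members' levels was not tested, and fewer cells of a type cannot be told apart from less RNA per cell.

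Panobinostat changed 3 of 35 members in hypoxic BV2, 1 higher and 2 lower (backgrounds 7.21% and 7.39%; median 0.30). Ifit2 rose from 2.28 and 3.66 CPM to 9.18 and 11.6 (log2 1.80, SE 0.33, edgeR adjusted p = 0.0096). Parp9 fell from 42.4 and 43.0 to 9.82 and 13.0 (log2 -1.90, SE 0.29, edgeR adjusted p = 0.0046), and Dtx3l from 23.2 and 29.7 to 11.1 and 14.4 (log2 -1.05, SE 0.27, edgeR adjusted p = 0.029). The groups did not overlap for these 3 genes. Isg15 stood at 7.31 and 4.33 CPM under DMSO and at 17.2 and 11.0 under panobinostat without passing (log2 1.27, SE 0.50, edgeR adjusted p = 0.12). Ifit2 was lost without replicate 2 of panobinostat, and 1 member was lower without any library other than replicate 1 of DMSO.

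In hypoxic BMDM panobinostat changed 0 of 39 members by edgeR (backgrounds 0% and 0%; 4 at unadjusted p under 0.05), and DESeq2 called 0 higher and 3 lower (6.99% of all genes lower). The median change was 0.04. Ifitm3 stood at 212 and 213 CPM under DMSO and at 122 and 88.0 under panobinostat (log2 -1.02, SE 0.52, edgeR adjusted p = 0.27), and Isg15 at 38.1 and 6.54 then 31.4 and 14.5. The spread between the BMDM libraries of this experiment was the widest, with a biological coefficient of variation of 0.381 against 0.205 in BV2. The difference in response between BV2 and BMDM did not pass by edgeR for any member. For panobinostat edgeR and DESeq2 both called 0 (2 at unadjusted p under 0.05; 0.0251% of all genes by edgeR). For hypoxia under DMSO edgeR called 0 (8 at unadjusted p under 0.05; 0.664% of all genes). DESeq2 called 4 for hypoxia, with a positive log2 change in BV2 minus that in BMDM.

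**Figure D5:**
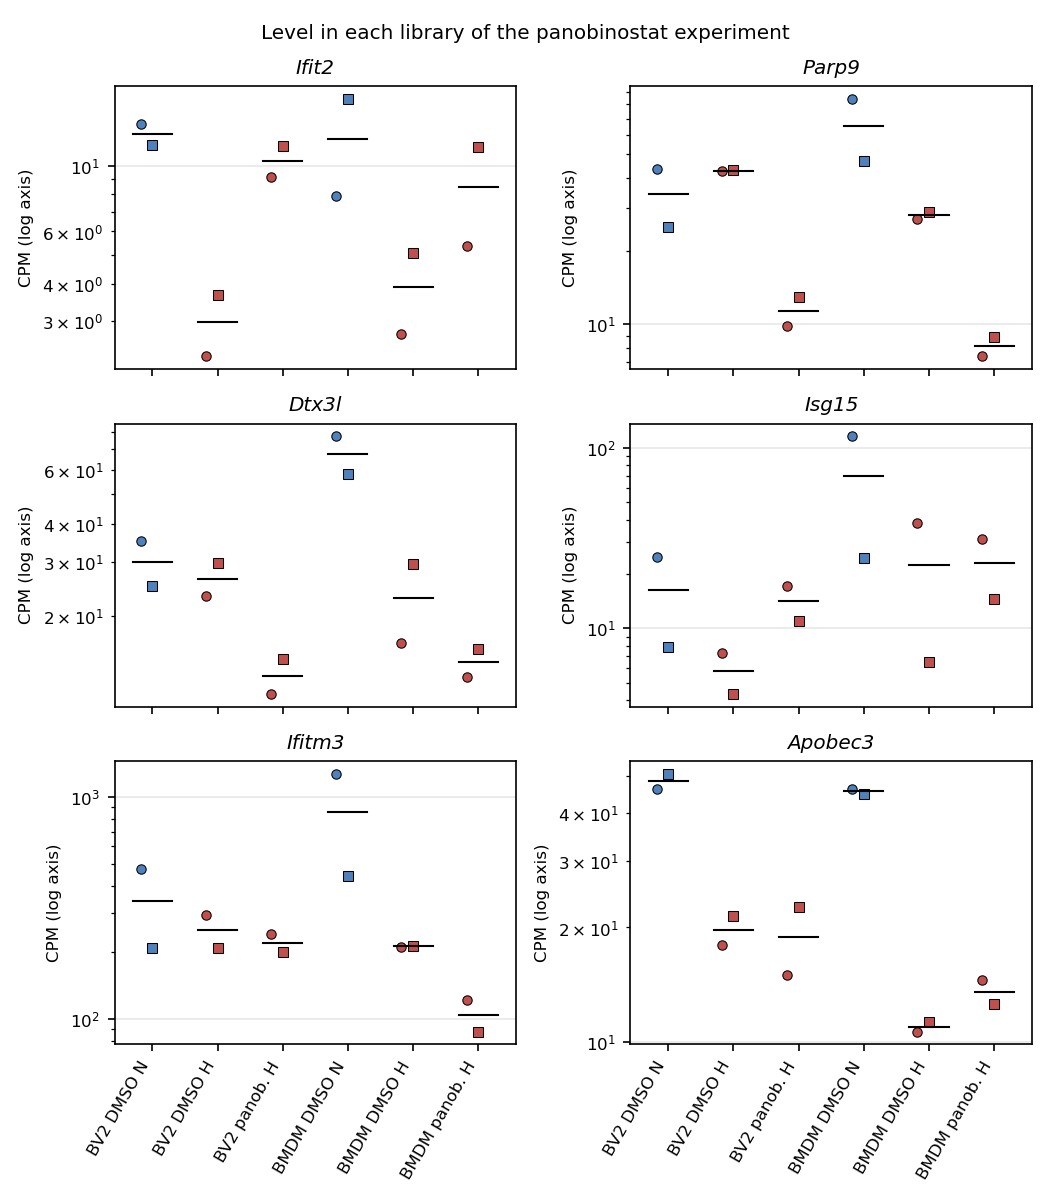
Levels of Ifit2, Parp9, Dtx3l, Isg15, Ifitm3 and Apobec3 (CPM, log axis) in BV2 and BMDM under DMSO in normoxia, DMSO in hypoxia and panobinostat in hypoxia; circles and squares are replicates 1 and 2 and the line is the mean. Parp9 in BV2 lies at 42.4 and 43.0 CPM under DMSO and at 9.82 and 13.0 under panobinostat.

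The rest of the interferon pathway was read from a list of 35 ligand, receptor, kinase, factor, sensor and inhibitor genes. None of the interferon ligand genes exceeded 0.447 CPM in mean level in any group, and Ifnb1 was the highest. Irf7, the factor that amplifies type I interferon, rose in co-culture of BMDM, from a mean of 69.1 to 338 CPM in normoxia (log2 2.29) and from 41.7 to 171 in hypoxia (2.04). It also rose in GL261, from 17.7 to 40.3 (1.19) and from 17.2 to 45.3 CPM (1.39), and in BV2 it did not pass. Of the list, 2 of 28 rose and 0 fell in normoxic GL261 co-culture (0.323% of all genes rose) and 3 and 0 in hypoxia (0.889%). In BMDM 2 of 28 rose in normoxia, Irf7 and the sensor Zbp1 (2.22), and 1 in hypoxia (1.57% and 4.06% of all genes). In BV2 0 of 27 rose and 2 fell in normoxia (5.77% and 9.14% of all genes), and 2 rose and 4 fell in hypoxia (8.13% and 7.57%).

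Under hypoxia 8 of the 27 list genes tested rose and 8 fell in BV2 monoculture, near the 30.9% and 31.0% of all genes, with Tyk2 (1.14) and Irf8 (1.04) higher and the cGAS gene Mb21d1 (-1.51) and Socs1 (-1.42) lower. In GL261 monoculture 6 rose, led by Irf5 (2.62) and Irf1 (1.70), and 5 fell of 28, against 23.2% and 21.4% of all genes. In BMDM monoculture 0 of 28 rose and 4 fell (13.3% and 10.6% of all genes), and in co-culture 1 rose and 12 fell (17.5% and 17.3%). Under panobinostat 3 of 27 fell in BV2 (7.39% of all genes), Tlr7 (-2.15), Mb21d1 (-1.38) and Irf8 (-1.07), and edgeR called 0 in BMDM (3 at unadjusted p under 0.05).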

How the data were processed

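RNA was measured in 38 libraries. The authors deposited raw read counts per gene in 3 tables. The submitters' processing notes name Trimmomatic 0.36, STAR 2.6, SAMtools, HTSeq 0.9.1, deepTools and build mm10, and Picard 2.17.1 for the first table only. The counter's strand setting and annotation release are not given in the sources used here. Symbols were matched to Ensembl IDs with GENCODE M21 (GRCm38). Each cell type and experiment was fitted apart with edgeR 4.0.16 (TMM, filterByExpr with a minimum count of 10, quasi-likelihood F test, Benjamini-Hochberg adjusted p under 0.05 over all genes tested), in R 4.3.3. DESeq2 1.42.0 was an alternative, with others given at the end. Scripts were tested on simulated counts. The 39 members and the pathway and marker lists were chosen with earlier results of these data known. Any member could be named: per-library values are given for up to 3 members with the largest change in each direction per comparison, and for Isg15, Ifit1, Ifitm3 and Bst2 throughout, with others chosen after their values were seen. Depth was 9634700 to 27238933 counts per library, and intervals cover counting error only. No replicate pair agreed within sampling noise (chi-square per degree of freedom 6.70 to 155.5 over 22 pairs). Same-numbered libraries deviated together in all 3 pairs of the BMDM co-culture hypoxia comparison (correlations 0.46, 0.24 and 0.41), so the numbers pair those libraries. The values reported are from the fit without the block, in which 27 members fell and 1 rose, and with the replicate block 29 fell and 1 rose.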

Additional observations from a re-analysis of the deposited data

Results flagged for a closer look

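The effect of hypoxia differed between BV2 and GL261 monocultures for 9 of 39 members by an interaction term, given here as the log2 change in BV2 minus that in GL261. This share is below the 37.4% of all genes tested that were called, so the count does not set the members apart. Samd9l differed by 2.30, Ifitm3 by 1.22, Lgals3bp by 1.15 and Parp9 by 0.91, so that these stood higher in hypoxic BV2 relative to normoxia than in GL261. Gbp3 differed by -2.58, Rtp4 by -2.27, Ifi35 by -1.43, Ifit2 by -1.24 and Apobec3 by -0.48. Apobec3 fell in both lines, and Rtp4 rested on 4 counts in hypoxic BV2.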

How the results depend on the processing

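Alternatives were DESeq2, its size factors within edgeR, no filter on low counts, a replicate block, only the 2 groups compared, genes higher in the partner left out, and each library left out, where the lone library is assumed to vary like the others. Of the values for named members, 1046 kept their direction and their side of the threshold, 145 fell short of it, 54 newly passed and 21 changed sign. The cause of any change was not tested. Groups of 2 libraries and an unknown strand setting limit every count below. The share of all genes called is given only for some of these settings, in the sections above. Without it, a count below cannot tell a change in the members from a change in calls over all genes.

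Counts of members called, higher unless said, moved as follows. Without the filter: co-culture against monoculture in normoxia BV2 8 (and 1 lower), GL261 24, BMDM 31, and in hypoxia GL261 30 and BMDM 24; hypoxia against normoxia GL261 monoculture 5, GL261 co-culture 8, BMDM monoculture 26 lower, BMDM DMSO 35 lower; panobinostat BV2 6, BMDM 1 and 6 lower; the BV2 co-culture interaction 3 lower; BV2 against BMDM 1; the hypoxia difference between BV2 and BMDM 10 and the panobinostat difference 1. With DESeq2: co-culture BV2 hypoxia 5, GL261 14 and 17, BMDM 24 and 15; BMDM DMSO hypoxia 33 lower; BMDM panobinostat 3 lower; the hypoxia difference between BV2 and BMDM 4. With only the 2 groups compared: co-culture BV2 normoxia 8 and hypoxia 1 lower, GL261 13 and 0, BMDM hypoxia 1; BMDM monoculture hypoxia 23 lower; BMDM DMSO hypoxia 0 lower (35 at unadjusted p under 0.05); panobinostat BV2 5 and 4 lower. Without genes higher in the partner: co-culture BV2 2 and 1, GL261 normoxia 3, BMDM 2 and 4.

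Other than in the BMDM co-culture hypoxia comparison, groups shared only 2 replicate numbers, so that pairing is not established. Deviations of same-numbered libraries were still positively correlated in every pair of groups of the panobinostat experiment, at 0.34 to 0.59 in BMDM and 0.15 to 0.39 in BV2. In the co-culture experiment the correlations ran from 0.04 to 0.37 in GL261, from -0.08 to 0.17 in BV2 and from -0.002 to 0.46 in BMDM. The fits without the block do not take such sharing into account. With the replicate block the counts were: co-culture GL261 24 and 26, BMDM normoxia 17, BV2 normoxia 1 lower; the BV2 co-culture interaction 1 lower; hypoxia GL261 monoculture 4 and co-culture 6; panobinostat BV2 7 and BMDM 2 lower; BMDM DMSO hypoxia 30 lower; BV2 against BMDM 1; the hypoxia difference between BV2 and BMDM 1. The block moved no other count by over 1.5 times.

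With 1 library left out, ranges were as follows. Hypoxia against normoxia: BV2 monoculture 9 to 18 lower; GL261 monoculture 0 to 2 higher and 7 to 13 lower; GL261 co-culture 1 to 8 higher and 9 to 18 lower; BMDM monoculture 0 to 1 higher and 3 to 11 lower; BV2 DMSO 1 to 3 higher and 8 to 28 lower; BMDM DMSO 0 to 1 lower. Co-culture against monoculture: BV2 normoxia 0 to 6 higher; BV2 hypoxia 3 to 10 higher and 0 to 4 lower; GL261 0 to 2 and 2 to 13 higher; BMDM 0 to 6 and 1 to 11 higher. Others: the BV2 co-culture interaction 0 to 1 lower; panobinostat in BV2 0 to 1 higher and 1 to 2 lower; BV2 against GL261 hypoxia difference 1 to 5 higher and 2 to 5 lower; BV2 against BMDM 0 to 1 higher and 15 to 30 lower; their hypoxia difference 0 to 1 higher.

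The 21 sign changes were in values that had not passed. In hypoxic BV2 co-culture against monoculture Ifitm3 became -0.0501 with no filter. The other 20 came with 1 library left out, where the ranges were as follows. Under hypoxia against normoxia, BV2 monoculture gave Isg15 -0.60 to 0.148 and Ifitm3 -0.43 to 0.148, BV2 co-culture Ifit1 -0.0996 to 0.43, GL261 monoculture Isg15 -0.69 to 0.62 and BV2 DMSO Ifitm3 -0.89 to 0.31. Hypoxic BV2 co-culture against monoculture gave Ifitm3 -0.18 to 0.17 and Bst2 -0.105 to 0.23. Panobinostat gave Ifitm3 -0.41 to 0.0887 in BV2, and Isg15 -0.74 to 1.85, Ifit1 -0.33 to 0.79 and Bst2 -0.0862 to 0.68 in BMDM. BV2 against GL261 gave Ifitm3 -0.41 to 0.74, and BV2 against BMDM gave Bst2 -1.30 to 0.106.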
